A study of Mus musculus with 73 samples.

Results

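The genes described here are 9 genes that mark the epiblast of the early mouse embryo, the tissue from which the fetus forms. They are the transcription factor genes Pou5f1, Nanog, Sox2 and Otx2, the chromatin factor gene Utf1, the growth factor gene Fgf5, the prohormone gene Trh, and the transporter genes Slc7a3 and Slc35d3. They were taken by name, and all 9 were among the 30546 genes of the deposited table. Their levels were followed in 72 libraries that fall into 12 groups of genotype, cross and tissue.

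Pou5f1, Sox2 and Nanog encode transcription factors that bind together at many enhancers and hold cells in a pluripotent state, in which they can still give rise to every tissue of the body. After implantation the epiblast leaves the naive state of the blastocyst and becomes primed for gastrulation. Otx2 and Fgf5 are switched on in that step, while Nanog persists mainly where the primitive streak will form. Sox2 is also used outside the epiblast, in the extraembryonic ectoderm (ExE), the neighbouring tissue that contributes to the placenta and contains trophoblast stem cells.

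The study asked which chromatin regulators maintain parental imprints in these lineages, so its reads were assigned to parental alleles. Epiblast (35 libraries) and ExE (37 libraries) were dissected from single embryos at embryonic day 6.5, after the visceral endoderm had been stripped off. Wild-type embryos with a BDF1 mother and a CAST father (BDF1xCAST) gave 7 libraries of each tissue, and the reciprocal cross (CASTxBDF1) gave 4 of each. BDF1 is a hybrid laboratory mouse and CAST a wild-derived inbred strain. The knockouts were all made in BDF1xCAST zygotes by injecting Cas9 mRNA with guide RNAs, so each knockout embryo was edited separately. Dnmt1 embryos, edited in the gene of the maintenance DNA methyltransferase, gave 3 epiblast and 3 ExE libraries. G9aGlp embryos, edited in both Ehmt2 (G9a) and Ehmt1 (Glp), the histone H3 lysine 9 methyltransferase genes, gave 6 and 8. Rnf2 embryos, edited in a catalytic subunit gene of Polycomb repressive complex PRC1, gave 6 and 5. Eed embryos, edited in a core subunit gene of PRC2, gave 9 and 10. BDF1xCAST zygotes came from sperm injection and CASTxBDF1 embryos from natural mating, so the direction of the cross and the mode of fertilisation cannot be told apart.

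A read entered the deposited counts only when it covered a polymorphism between BDF1 and CAST. Levels are given as CPM, a gene's count scaled to the total of such reads in its library. A gene with few polymorphisms has a low CPM whatever its expression, so levels are compared between libraries and never between genes. Library totals ranged from 1141414 to 3976031 reads, apart from the Rnf2 libraries, which ranged from 1847681 to 17653087. The targeted gene fell to 24.3% of its wild-type mean in Dnmt1 epiblast, 58.6% in Rnf2 epiblast and 5.96% in Eed epiblast. In libraries labelled G9aGlp the epiblast means were 72.2% of wild type for Ehmt1 and 100% for Ehmt2. Of the 6 libraries, 4 had neither gene under the wild-type minimum, and these 4 are called the doubtful G9aGlp libraries below. Ehmt2 was at 3.07 ± 2.27 CPM (SD, n = 7) in wild-type epiblast, too low for a fall to show clearly. In G9aGlp ExE the means were 50.6% for Ehmt1 and 24.4% for Ehmt2, with 5 and 6 of the 8 libraries under the minimum. Transcript counts alone do not show whether an embryo was edited. In Rnf2 ExE the mean was 77.4%, and 0 of the 5 libraries were under the wild-type minimum of Rnf2. In Dnmt1 ExE it was 61.4%, with 2 of 3 under the minimum. ExE markers, of which 14 could be measured, summed to 839 to 1722 CPM in BDF1xCAST ExE and 73.3 to 304 CPM in its epiblast, where Cdx2 and Pglyrp1 had no read. Wild-type BDF1xCAST epiblast embryo 8 stood apart: it had the fewest reads of its group and the highest sums of primitive streak and visceral endoderm markers (1294 and 873 CPM, against group medians of 490 and 49.4). Calls of members that rest on it are given both ways, while list genes and markers are given with it only.

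In the coordinates deposited with the table (build mm10), Pou5f1 lies at chr17:35506032-35510777, Nanog at chr6:122706483-122714633, Sox2 at chr3:34649995-34652461, Otx2 at chr14:48657452-48667644, Utf1 at chr7:139943856-139945112, Fgf5 at chr5:98254184-98277033, Slc7a3 at chrX:101079204-101090452, Trh at chr6:92242061-92244650 and Slc35d3 at chr10:19847917-19852363. The table gives 1 count per gene and library, with no split by exon or intron.

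The proximal promoters of the 3 members called in more than 1 knockout epiblast are shown first, since the enzymes removed by these knockouts act on chromatin and DNA methylation. The sequences are the 250 bases before the transcription start annotated by RefSeq (build GRCm38.p6), with every CG dinucleotide in capitals. RefSeq entries were found for 8 of the 9 members. Utf1 lies on the plus strand at chr7:139943606-139943855, Trh on the minus strand at chr6:92244651-92244900, and Slc35d3 on the minus strand at chr10:19851460-19851709, where the RefSeq start is 904 bases inside the deposited gene.
Utf1: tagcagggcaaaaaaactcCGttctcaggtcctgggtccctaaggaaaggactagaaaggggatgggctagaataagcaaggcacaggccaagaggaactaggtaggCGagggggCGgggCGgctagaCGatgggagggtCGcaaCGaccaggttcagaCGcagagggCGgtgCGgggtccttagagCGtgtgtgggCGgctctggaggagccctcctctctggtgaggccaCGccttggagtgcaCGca
Trh: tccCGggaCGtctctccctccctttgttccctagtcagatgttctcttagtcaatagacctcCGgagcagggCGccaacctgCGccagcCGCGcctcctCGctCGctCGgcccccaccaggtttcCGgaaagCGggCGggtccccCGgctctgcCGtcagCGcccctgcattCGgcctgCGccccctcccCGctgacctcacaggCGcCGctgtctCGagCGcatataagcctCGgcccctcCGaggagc
Slc35d3: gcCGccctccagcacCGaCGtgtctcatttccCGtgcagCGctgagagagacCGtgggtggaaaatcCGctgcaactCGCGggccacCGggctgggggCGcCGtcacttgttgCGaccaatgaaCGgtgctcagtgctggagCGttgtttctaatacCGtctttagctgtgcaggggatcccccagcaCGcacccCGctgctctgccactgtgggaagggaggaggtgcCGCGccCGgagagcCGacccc
The Utf1 window held 14 CG dinucleotides, the Trh window 25 and the Slc35d3 window 22, against a median of 6 over 32536 distinct promoter windows of this length. Thus 70.4%, 89.2% and 85.1% of promoters, respectively, held fewer. Fgf5 (24) and Sox2 (27) were as rich in CG as Trh. Pou5f1 (8), Otx2 (6) and Nanog (3) held fewer than the 3 windows shown, and 56.7% of promoters held fewer than Pou5f1. No methylation measurement was analysed here.

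The Nanog promoter is shown for the sequences that the products of Pou5f1 and Sox2 recognise. Its window, on the plus strand at chr6:122707239-122707488 before a RefSeq start 1006 bases inside the deposited gene, carries an octamer core, the kind of sequence bound by POU factors, beside a core of the kind bound by SOX factors. Both are in capitals.
Nanog: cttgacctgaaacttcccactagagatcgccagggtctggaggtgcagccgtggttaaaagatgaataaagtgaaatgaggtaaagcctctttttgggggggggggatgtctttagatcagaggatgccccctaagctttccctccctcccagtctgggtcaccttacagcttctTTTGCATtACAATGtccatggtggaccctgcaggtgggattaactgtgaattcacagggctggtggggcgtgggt
The octamer core was searched as ATGCAAA or TTTGCAT and the SOX core as ACAATG or CATTGT, so that both strands were covered, and the matches did not overlap. They began 75 and 67 bases before the start. Of the 8 windows, 2 held an octamer core (Nanog, and Sox2 at 99 bases before the start) and 1 a SOX core. Over all promoter windows the shares were 4.15% and 10.5%. A match describes the sequence only.

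In the wild type, 6 of the members were epiblast genes in these libraries as their name has it, while Utf1 was not. Fgf5, Trh, Slc7a3, Otx2, Nanog and Slc35d3 had reads in every wild-type epiblast library and none or traces in ExE. Utf1 was higher in ExE than in epiblast, Sox2 was present in both tissues, and Pou5f1 had almost no countable reads. The plot of levels in all 72 libraries shows each of these patterns.

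**Figure D1:**
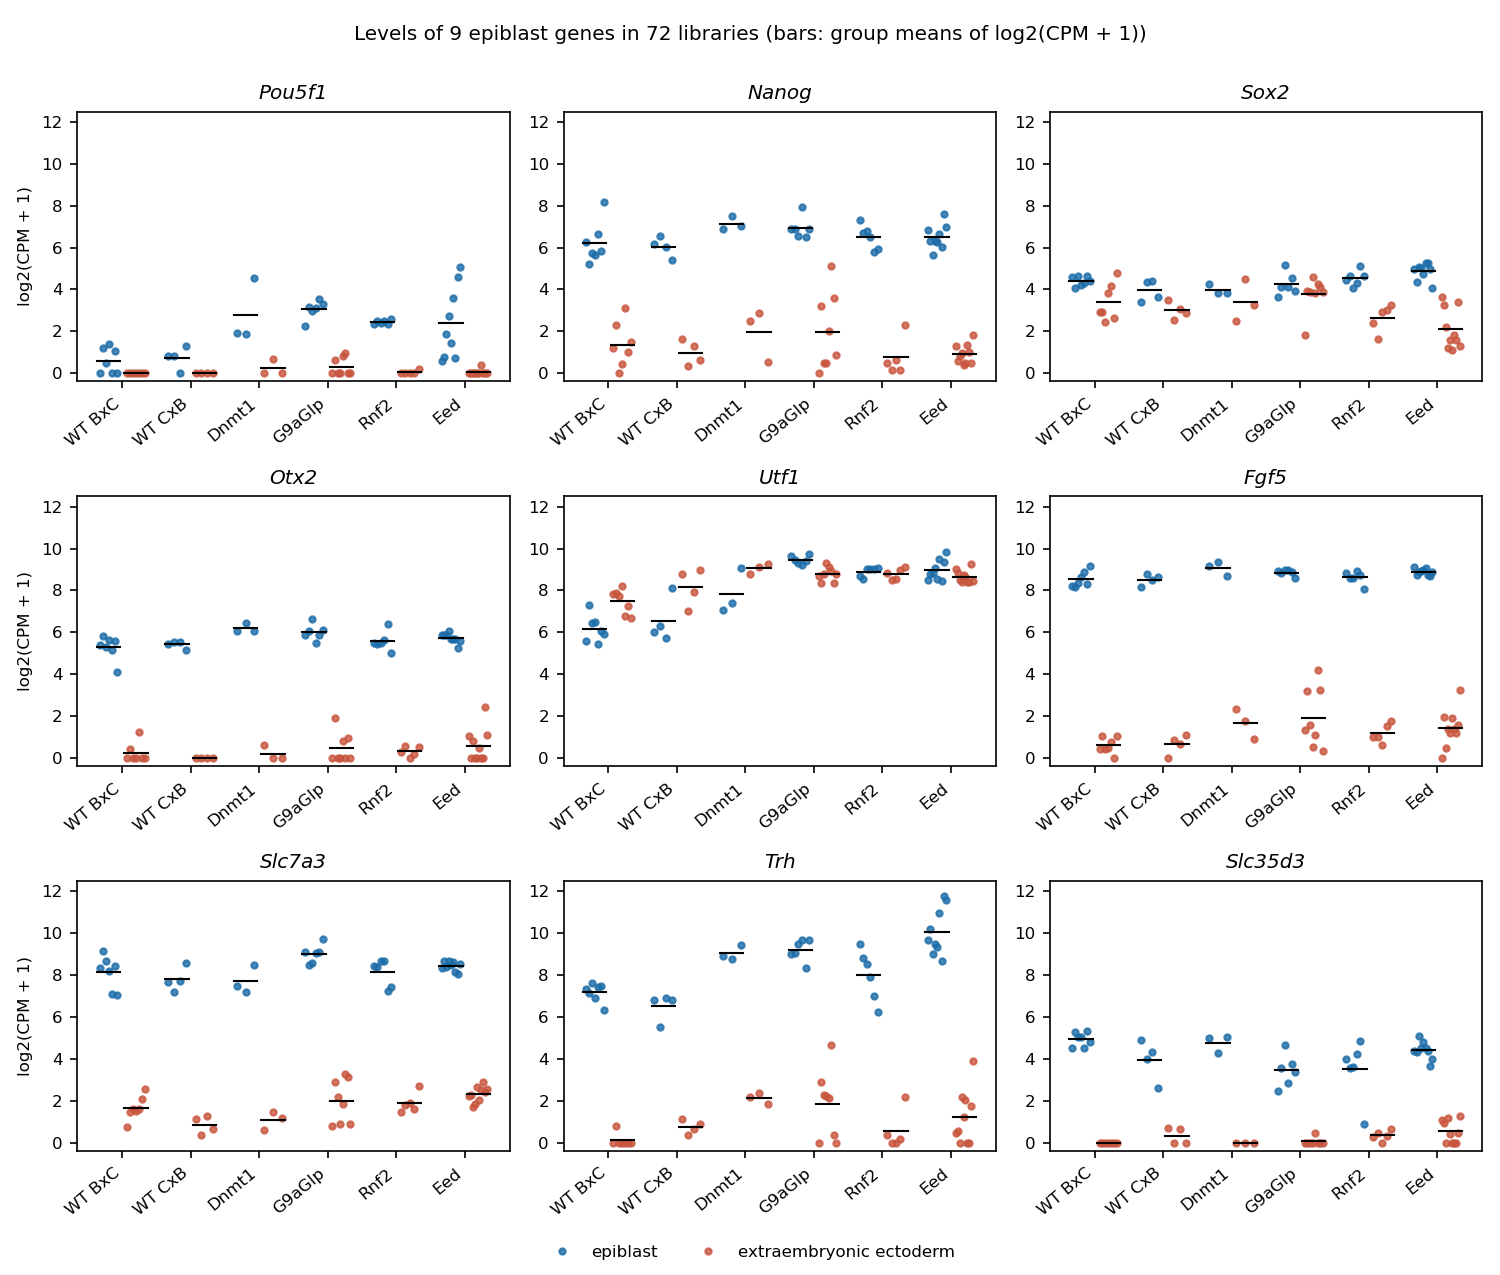
Levels of the 9 genes by library, as log2(CPM + 1), in epiblast (blue) and ExE (red) of the 6 combinations of genotype and cross. Points are libraries and bars are group means on that scale; 6 genes are separated by tissue in every group, Utf1 is not, and Trh and Utf1 stand higher in knockout than in wild-type epiblast.

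Pou5f1, which encodes OCT4, had 0 to 4 reads per wild-type epiblast library and none in any wild-type ExE library. Pooled over the 7 BDF1xCAST embryos this was 12 reads (0.712 CPM) against 0. With ExE set to a floor of 3 reads over the group the ratio was 4.81, which leaves out the counting error of the 12 epiblast reads. How many polymorphisms the Pou5f1 transcript carries is not given in the sources used here, so its low count says nothing of its expression relative to other genes.

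Nanog ranged from 36.7 to 284 CPM over the BDF1xCAST epiblasts, with a median of 55.9. In the paired ExE libraries it ranged from 0 to 7.67 CPM with a median of 1.31, below every epiblast. The difference was −5.23 ± 0.598 (log2 ± SE, adjusted p = 7.85e-07, edgeR's quasi-likelihood test with Benjamini-Hochberg adjustment over all genes, as in every such p below). As in all bulk samples, fewer expressing cells and less RNA per cell cannot be told apart.

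Sox2 ranged from 15.5 to 24.0 CPM in BDF1xCAST epiblast (median 19.8) and from 4.47 to 26.1 CPM in ExE (median 6.55). In 5 of the 7 ExE libraries it lay below every epiblast, and ExE embryo 8 lay above all of them. The difference of −0.80 ± 0.356 missed the threshold of 0.05 (adjusted p = 0.0647). With the embryo as a block, which pairs the tissues of the same embryo, it passed (−1.03, adjusted p = 0.0210), and without embryo 8 it was −1.22 (adjusted p = 0.00217). Sox2 lies within Sox2ot, a long noncoding gene, and the counting is not stated to use strand. The levels of the pair were nearly equal in each group (20.4 and 21.7 CPM in BDF1xCAST epiblast), so their reads cannot be told apart.

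Otx2, a homeobox gene of the primed epiblast and the later head, ranged from 16.0 to 54.8 CPM in BDF1xCAST epiblast with a median of 41.3. In ExE 5 of the 7 libraries had no read, and the highest had 1.33 CPM. The difference was −7.10 ± 0.520 (adjusted p = 2.90e-09). Slc7a3, an X-linked transporter of cationic amino acids, ranged from 131 to 564 CPM in epiblast and from 0.655 to 5.00 CPM in ExE (−7.00 ± 0.435, adjusted p = 3.97e-10). Neither gene had overlapping groups.

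Fgf5, Trh and Slc35d3 were known from earlier results on these data to separate the tissues, so their levels are a description. Fgf5, a fibroblast growth factor and a standard mark of the primed epiblast, ranged from 289 to 574 CPM in BDF1xCAST epiblast and from 0 to 1.08 CPM in ExE. Trh encodes the precursor of thyrotropin-releasing hormone. It ranged from 78.5 to 199 CPM in epiblast, while 6 of the 7 ExE libraries had no read and the other had 2. Slc35d3, a member of a family of nucleotide-sugar transporters, ranged from 21.8 to 39.9 CPM in epiblast and had no read in any of the 7 ExE libraries. Set against a floor of 3 reads over the ExE group, its pooled level was 211-fold higher in epiblast, which leaves out the counting error of the epiblast reads. For Trh the pooled ratio was 1570, with an exact 95% interval of 434 to 12968 that covers counting error only.

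Utf1, which encodes a chromatin-bound factor of embryonic stem cells, ran the other way. It ranged from 42.7 to 158 CPM in BDF1xCAST epiblast (median 65.3) and from 103 to 296 CPM in ExE (median 215). The tissues overlapped, since epiblast embryo 2 was above the 3 lowest ExE libraries. ExE was higher by 1.30 ± 0.293 on the log2 scale (adjusted p = 0.00106, and 1.70e-05 to 0.000943 over 5 alternatives). The CASTxBDF1 embryos had 64.6, 77.4, 52.5 and 274 CPM in epiblast and 446, 130, 240 and 496 CPM in ExE, higher in ExE in each of the 4. Of the 8 members tested between the tissues, 7 passed, 6 lower and 1 higher in ExE, where 56.7% of all tested genes passed, and nothing is read from that count because the members were named as epiblast genes.

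The fixed lists of related genes divided in the same comparison, where 56.7% of all tested genes passed. Of 12 tested genes of formative and primed pluripotency, 9 were lower in ExE and 1 was higher. Fst, which encodes an activin-binding protein, went from 91.9 ± 71.8 CPM (SD, n = 7) in epiblast to 0.240 ± 0.368 CPM. Of 11 naive pluripotency genes, 5 were higher in ExE and 5 lower. Among the higher was Zfp42, known as Rex1, at 287 ± 55.0 CPM against 5.22 ± 2.12. In the core network list, the paired genes Dppa2 and Dppa4 were higher in ExE too: Dppa4 had 491 ± 71.3 CPM there and 6.63 ± 3.41 in epiblast. Medians were −3.81, 0.61 and −0.63 for the primed, naive and core lists, against −0.02 over all genes.

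The members did not vary together among wild-type epiblasts. Nanog was highest in BDF1xCAST embryos 8 and 6 (284 and 100 CPM), which also had the highest summed level of the 10 measured primitive streak and mesoderm markers (1294 and 880 CPM). Utf1 and Slc7a3 were highest in embryo 2 (158 and 564 CPM), where the streak markers summed to 49.5 CPM, the lowest of the group. Among the CASTxBDF1 embryos, number 4 was likewise highest in Utf1 (274 CPM) and Slc7a3 (380 CPM) and lowest in streak markers (126 CPM), and it was lowest in Nanog (42.0 CPM). These are descriptions of 11 embryos, and whether developmental stage had a part in them was not tested. Trh was lowest in BDF1xCAST embryo 8 (78.5 CPM) and CASTxBDF1 embryo 2 (45.4 CPM), the library with the most visceral endoderm marker reads (6639 CPM).

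In knockout epiblast the members split into 3 sets. Utf1 and Trh were higher in each knockout, Slc35d3 was lower in 3 of them, and Nanog, Sox2, Otx2, Fgf5 and Slc7a3 passed the threshold in none. Pou5f1 rose from its trace level in Rnf2 epiblast, where it could be tested only through its reads in the knockout libraries. The 4 members called there include it. The 4 comparisons share the same 7 wild-type libraries and are therefore not independent of one another. Members called numbered 2 of 8 tested in Dnmt1 (14.1% of all tested genes were called), 3 of 8 in G9aGlp (34.6%), 4 of 9 in Rnf2 (31.0%) and 3 of 8 in Eed (35.7%), so the counts lay near the share of all genes, and the results concern single members. Without wild-type embryo 8 the counts were 3, 5, 3 and 3, where 24.5%, 41.6%, 36.6% and 40.8% of all tested genes were called.

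**Figure D2:**
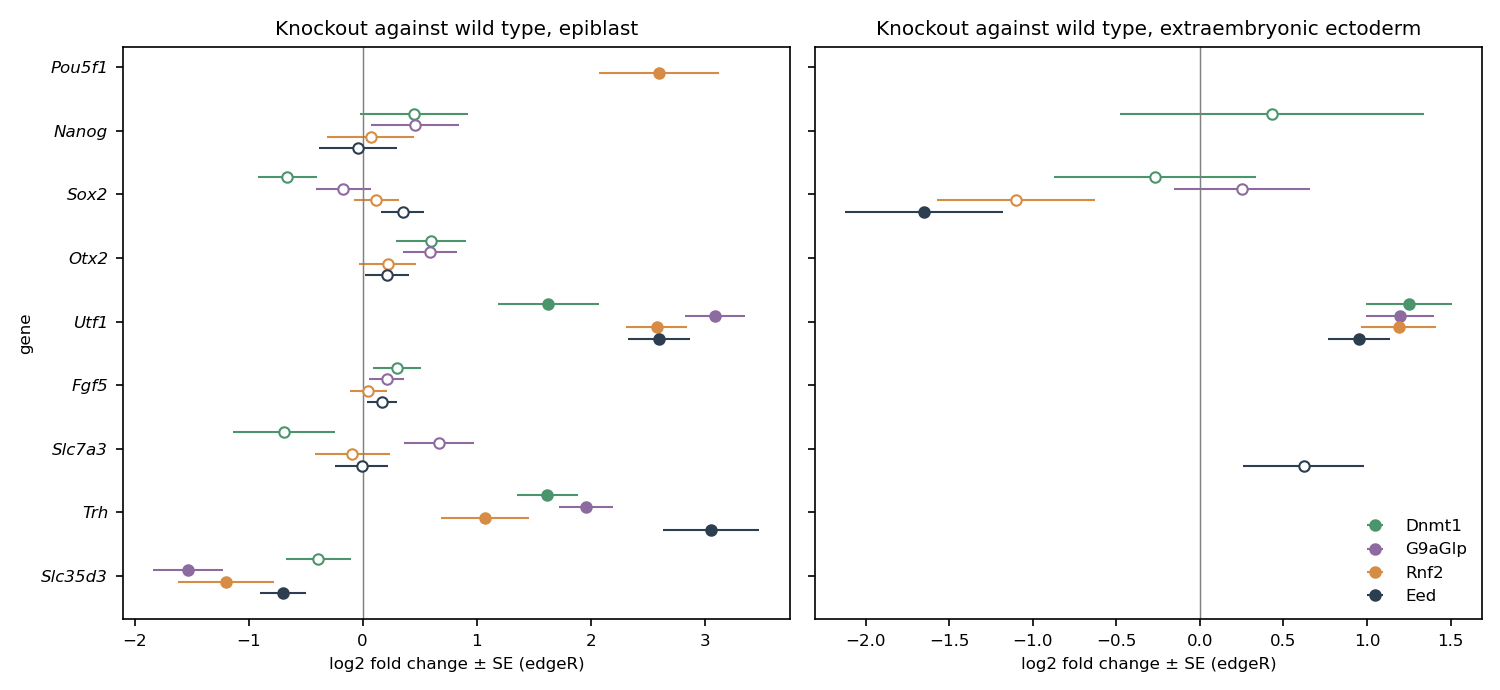
Log2 fold change (±SE) of each member in knockout against wild-type BDF1xCAST libraries, in epiblast (left) and ExE (right). Filled points passed an adjusted p of 0.05 and open points did not; genes without a point in a comparison had too few reads to be tested. Utf1 lies right of 0 in both tissues, while Fgf5 lies within 0.30 of 0 in each epiblast comparison.

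Pou5f1 was tested in Rnf2 epiblast alone, where the libraries were deepest. It passed the filter on low counts only through the Rnf2 libraries, since the wild type had 0 to 4 reads each. Its filtered test is therefore a description. It had 4.08 to 4.97 CPM there (median 4.35, 23 to 72 reads each) against 0 to 1.61 CPM in the wild type, without overlap, a change of 2.60 ± 0.530 (adjusted p = 0.00167). With the filter on low counts removed it also passed in Dnmt1 (3.43, adjusted p = 0.00759), G9aGlp (3.28, adjusted p = 3.52e-05) and Eed (3.39, adjusted p = 0.000498). The 3 Dnmt1 epiblasts had 2.81, 2.63 and 22.1 CPM. The 9 Eed epiblasts ranged from 0.504 to 32.3 CPM with a median of 2.66, and embryos 6, 9 and 10 held the 3 highest values. All G9aGlp epiblasts, at 3.76 to 10.8 CPM, were above every wild-type library.

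Nanog had 118, 179 and 128 CPM in Dnmt1 epiblast, within the wild-type range. It ranged from 89.8 to 247 CPM in G9aGlp, from 54.2 to 157 CPM in Rnf2 and from 48.8 to 196 CPM in Eed, each overlapping the wild type. Its fitted changes were 0.45, 0.46, 0.07 and −0.04, with standard errors of 0.342 to 0.476. Without wild-type embryo 8 the change became 0.96 in Dnmt1 (adjusted p = 0.0182) and 0.98 in G9aGlp (adjusted p = 0.00458), so a single wild-type library decided whether Nanog was called in those 2 knockouts. In Rnf2 and Eed Nanog was called under no alternative run.

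Sox2 stayed between 11.3 and 37.4 CPM over the 24 knockout epiblasts. It had 18.3, 13.1 and 13.4 CPM in Dnmt1 (−0.66 ± 0.262, adjusted p = 0.114), and 7 of the 9 Eed epiblasts were above the highest wild type (0.35 ± 0.191, adjusted p = 0.158). Otx2 had 65.2, 85.9 and 65.8 CPM in Dnmt1, all above the wild-type maximum of 54.8 CPM, but did not pass (0.60 ± 0.306, adjusted p = 0.221). In G9aGlp 5 of 6 epiblasts exceeded that maximum, with a change of 0.59 ± 0.238 (adjusted p = 0.0638, and 0.0475 without wild-type embryo 8). In Rnf2 (31.1 to 82.5 CPM) and Eed (37.3 to 65.8 CPM) Otx2 overlapped the wild type, with adjusted p values of 0.543 and 0.415.

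Utf1 was called in each of the 4 knockouts. In G9aGlp epiblast it ranged from 598 to 865 CPM (median 697), against 42.7 to 158 CPM in the wild type. In Rnf2 it ranged from 372 to 536 CPM (median 519) and in Eed from 353 to 914 CPM (median 461). No library of these 3 knockouts overlapped the wild type. The changes were 3.09 ± 0.264 (adjusted p = 3.62e-07), 2.58 ± 0.269 (adjusted p = 6.34e-06) and 2.60 ± 0.271 (adjusted p = 1.77e-06), and each passed under every alternative run. In Dnmt1 the 3 embryos had 135, 166 and 533 CPM, the first within the wild-type range. The change of 1.63 ± 0.441 passed (adjusted p = 0.0265) but rested on embryo 3: without it the change was 0.68 (adjusted p = 0.375), and with sex in the model the adjusted p was 0.0579. Since wild-type ExE also expresses Utf1, the ExE markers are given beside it. They summed to 71.0 to 165 CPM in G9aGlp epiblast, 79.9 to 349 in Rnf2, 80.9 to 217 in Eed and 143 to 322 in Dnmt1, against 73.3 to 304 CPM in the wild type, which overlapped in each case. Single markers moved within these sums, where 31.0% of all tested genes were called in Rnf2, 35.7% in Eed, 34.6% in G9aGlp and 14.1% in Dnmt1. In Rnf2 epiblast 3 of 7 tested ExE markers rose and 1 fell (median 1.38): Bmp4, a growth factor gene of the ExE, went from 0.650 to 10.6 CPM and Ascl2 from 5.24 to 15.3 CPM, while Eomes, which the streak list holds too, fell from 99.7 to 31.7 CPM. In Eed epiblast 2 of 5 rose, Ascl2 to 12.8 CPM and the keratin gene Krt8 from 14.6 to 25.3 CPM, and Eomes fell to 37.5 CPM. In both G9aGlp and Dnmt1 1 of 5 passed, Fgfr2, which fell. Bmp4, at 0.650 CPM in the wild type, passed the filter on low counts only through the Rnf2 libraries. The count of rising ExE markers in Rnf2 and their median are therefore partly set by the filter. The part of ExE cells in the rise of Utf1 was not tested.

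Fgf5, the ligand, was the steadiest member. It had 575, 647 and 408 CPM in Dnmt1 epiblast, and ranged from 382 to 499 CPM in G9aGlp, 263 to 486 CPM in Rnf2 and 407 to 558 CPM in Eed, against 289 to 574 CPM in the wild type. Its changes were 0.30 ± 0.212, 0.21 ± 0.153, 0.05 ± 0.162 and 0.17 ± 0.132 (adjusted p from 0.310 to 0.829). A change that misses the threshold is not shown to be absent.

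Trh, the hormone precursor, rose most in Eed epiblast. The 9 Eed embryos ranged from 411 to 3495 CPM with a median of 819, all above the wild-type maximum of 199 CPM, and embryos 6, 9 and 10 had 1985, 3495 and 3038 CPM. The change was 3.06 ± 0.421 (adjusted p = 2.72e-05), and it still passed without those 3 embryos (2.11, the lowest change of 7 alternatives). In Dnmt1 the values were 490, 434 and 700 CPM (1.62 ± 0.268, adjusted p = 0.00194), and in G9aGlp they ranged from 323 to 832 CPM with a median of 629 (1.96 ± 0.235, adjusted p = 9.42e-06), both without overlap with the wild type. In Rnf2 the 6 embryos spread from 74.3 to 720 CPM (median 303). Of them 4 were above the wild type, 1 was within it and 1 was below it. That change of 1.07 ± 0.385 was the weakest (adjusted p = 0.0430), and was lost without wild-type embryo 8 (adjusted p = 0.0581) and with sex in the model (adjusted p = 0.0819).

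Of the transporters, Slc7a3 did not pass in any knockout epiblast. Its means were 227, 535, 306 and 351 CPM in Dnmt1, G9aGlp, Rnf2 and Eed, against 314 CPM in the wild type, and the largest fitted changes were −0.69 ± 0.450 in Dnmt1 (adjusted p = 0.340) and 0.67 ± 0.305 in G9aGlp (adjusted p = 0.0984). Slc35d3 fell. In G9aGlp it ranged from 4.51 to 24.1 CPM with a median of 10.2, and 5 of 6 embryos lay below the wild-type minimum of 21.8 CPM (−1.53 ± 0.308, adjusted p = 0.00102). In Rnf2 it ranged from 0.852 to 27.7 CPM with a median of 13.0, again with 5 of 6 below the wild type (−1.20 ± 0.422, adjusted p = 0.0388). The 9 Eed embryos spread from 11.8 to 32.8 CPM with a median of 19.9 (−0.70 ± 0.204, adjusted p = 0.0109), of which 6 lay below the wild type. In Dnmt1 the values were 30.5, 18.4 and 32.2 CPM (−0.39 ± 0.284, adjusted p = 0.408). The G9aGlp call was lost without the 4 doubtful libraries (−1.21, adjusted p = 0.151). The Eed call was lost without embryos 6, 9 and 10 (−0.52, adjusted p = 0.0698).

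The fixed lists give the other genes of the pathway. Of all tested genes 14.1%, 34.6%, 31.0% and 35.7% were called in Dnmt1, G9aGlp, Rnf2 and Eed epiblast. In the core network list, 6 of 18 tested genes rose in Dnmt1 epiblast and 1 fell, 4 of 17 rose and 2 fell in G9aGlp, and 6 of 18 rose and 3 fell in both Rnf2 and Eed. List medians were 0.39, 0.13, 0.01 and 0.02, against −0.01, 0.01, 0.00 and 0.01 over all genes. Dppa4, a partner of Dppa2 in priming developmental promoters, was at 6.63 ± 3.41 CPM (SD, n = 7) in wild-type epiblast. It had 94.0 ± 78.6 CPM in Dnmt1 (n = 3, adjusted p = 0.000439) and 205 ± 104 CPM in Rnf2 (n = 6, adjusted p = 1.03e-06). Gdf3, a ligand of the TGF-beta family, rose from 2.13 ± 1.49 CPM to 168 ± 84.1 CPM in Rnf2 (adjusted p = 3.50e-07) and 36.2 ± 18.2 CPM in Eed (n = 9, adjusted p = 9.82e-06). Its wild-type level was too low to pass the filter on low counts without the knockout libraries, so its rise is a description.

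Of the naive pluripotency genes, 8 of 11 tested were higher in Rnf2 epiblast and none lower (median 1.35), where 31.0% of all tested genes were called. Dppa3, a gene of the germline and the naive embryo, went from 10.7 ± 5.83 to 197 ± 125 CPM (n = 7 and 6, adjusted p = 1.34e-05). In Eed 3 of 10 rose, Dppa3 among them (109 ± 49.5 CPM, n = 9, adjusted p = 3.35e-06), in G9aGlp 1 of 7 rose and 1 fell, and in Dnmt1 0 of 9 passed in edgeR's test, where 2 had an unadjusted p under 0.05 and DESeq2 called 0. Of all tested genes 35.7% were called in Eed, 34.6% in G9aGlp and 14.1% in Dnmt1. The Rnf2 epiblast libraries were the deepest (5549733 to 17653087 reads), and the genes tested differed between knockouts, so these counts cannot be compared. Tcl1, at 0.584 CPM in the wild type and 26.6 CPM in Rnf2, passed the filter on low counts only through the Rnf2 libraries. The Rnf2 count and median are therefore partly set by the filter and are a description. Whether the knockouts differ from one another in this list was not tested. Of the primed list, between 1 and 3 of 13 or 14 genes passed in each knockout, against the same shares of all genes. Pim2, a kinase gene, was higher in each, with 1110 ± 704 CPM in Dnmt1, 863 ± 206 in G9aGlp, 583 ± 156 in Rnf2 and 1114 ± 298 in Eed, against 381 ± 76.7 CPM in the wild type. Fst, of the same list, was lower in G9aGlp, Rnf2 and Eed (33.8, 11.6 and 19.8 CPM against 91.9).

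Primitive streak markers stood beside these changes. In Dnmt1 epiblast 0 of 10 tested passed, with no unadjusted p under 0.05 in edgeR's test and no call by DESeq2. Markers that fell numbered 2 of 8 in G9aGlp, 2 of 7 in Rnf2 and 3 of 7 in Eed. Of all tested genes 14.1%, 34.6%, 31.0% and 35.7% were called in Dnmt1, G9aGlp, Rnf2 and Eed, so nothing is read from these counts. Mixl1, an early primitive streak gene, was at 2.77 ± 3.82 CPM in Rnf2 (n = 6) and 102 ± 95.9 CPM in the wild type (n = 7, adjusted p = 0.000944). The 10 measured markers summed to 49.5 to 1294 CPM in wild-type epiblast, 189 to 989 in Dnmt1, 62.4 to 425 in G9aGlp, 56.5 to 358 in Rnf2 and 69.7 to 576 in Eed, and none of the 10 was at 0 in any of these groups. Their part in the results for the members was not tested.

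In ExE few members had enough reads to be tested. Utf1 rose in each knockout. It had 447, 554 and 607 CPM in Dnmt1 ExE and 462, 359, 369, 504 and 550 CPM in Rnf2 ExE, and ranged from 323 to 642 CPM in G9aGlp and from 333 to 605 CPM in Eed. The wild type ranged from 103 to 296 CPM, so no knockout library overlapped it. The changes were 1.25 ± 0.257 in Dnmt1 (adjusted p = 0.00494), 1.20 ± 0.204 in G9aGlp (adjusted p = 0.000440), 1.19 ± 0.226 in Rnf2 (adjusted p = 0.00176) and 0.95 ± 0.186 in Eed (adjusted p = 0.000368). These comparisons share the same 7 wild-type libraries as well. Members called were 1 of 3 tested in Dnmt1 (18.5% of all genes called), 1 of 2 in G9aGlp (15.2%), 1 of 2 in Rnf2 (22.2%) and 2 of 3 in Eed (40.8%).

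Sox2 fell in Eed ExE. The 10 libraries ranged from 1.17 to 11.3 CPM with a median of 2.25, against 4.47 to 26.1 CPM in the wild type, and 7 of them lay below the wild-type minimum (−1.65 ± 0.473, adjusted p = 0.00806). In Rnf2 ExE the 5 values were 4.18, 2.14, 6.49, 7.08 and 8.57 CPM (−1.10 ± 0.474, adjusted p = 0.106, and 0.0345 with sex in the model). In G9aGlp (2.59 to 23.5 CPM) and Dnmt1 (4.59, 21.6 and 8.60 CPM) the adjusted p values were 0.708 and 0.804. Other pluripotency genes that ExE expresses fell in Eed ExE too, where 40.8% of all tested genes were called. In the core list 10 of 16 tested genes were lower and 3 higher, with Dppa4 at 118 ± 48.3 CPM (n = 10) against 491 ± 71.3 CPM (n = 7, adjusted p = 5.59e-08). In the naive list 4 of 10 were lower and 2 higher, and Zfp42 went from 287 ± 55.0 to 89.1 ± 35.9 CPM (adjusted p = 2.68e-07). Cell type markers moved in the same libraries. Of 14 ExE markers 5 fell and 3 rose, among them Eomes (115 to 34.7 CPM), Bmp4 (67.8 to 15.1 CPM) and Rhox9 (17.8 to 679 CPM). Of 6 tested visceral endoderm markers 4 rose, such as Rbp4 from 5.47 to 15.9 CPM. The 9 measured markers of maternal decidua and blood summed to 2.84 to 18.4 CPM, against 0.667 to 1.86 CPM in the wild type. The 1 of them that could be tested rose, but it passed the filter on low counts only through the Eed libraries. A marker near 0 in the wild type can enter such counts only by rising, so the marker counts are a description. Their part in the fall of Sox2 was not tested.

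The remaining members were traces in knockout ExE. The highest were found together in G9aGlp ExE embryo 8, with 33.8 CPM of Nanog, 17.1 CPM of Fgf5, 24.1 CPM of Trh and 8.80 CPM of Slc7a3, where the group medians were 1.90, 1.70, 3.53 and 3.04. In Eed ExE, embryo 10 by its label was likewise highest in Fgf5 (8.53 CPM), Trh (13.7 CPM) and Nanog (2.56 CPM). The 14 ExE markers summed to 1368 and 1082 CPM in these 2 libraries, within the ranges of their groups, and a share of epiblast cells in them was not tested. When the filter on low counts was removed, Trh passed in Dnmt1, G9aGlp and Eed ExE (adjusted p = 0.00332, 0.000342 and 0.00570), Fgf5 in G9aGlp ExE (adjusted p = 0.00446) and Slc35d3 in Eed ExE (adjusted p = 0.0190). Members called were then 2 of 8 in Dnmt1 ExE (9.82% of all genes), 3 of 9 in G9aGlp (8.20%), 1 of 9 in Rnf2 (12.1%) and 4 of 9 in Eed (24.8%). Slc35d3 totalled 16 reads over the 10 Eed ExE libraries.

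Whether a knockout acted differently in the 2 tissues was tested as an interaction, the ExE change minus the epiblast change, with no term for the embryo. Utf1 rose less in ExE than in epiblast in G9aGlp (−1.86 ± 0.339, adjusted p = 0.00104), Rnf2 (−1.40 ± 0.371, adjusted p = 0.0184) and Eed (−1.60 ± 0.322, adjusted p = 0.000629), but not detectably in Dnmt1 (−0.32 ± 0.558, adjusted p = 0.913). The pooled ratio of epiblast to ExE for Utf1 was 0.431 in the wild type and 0.495 in Dnmt1, but 1.57 in G9aGlp, 1.01 in Rnf2 and 1.37 in Eed. Sox2 also differed in Eed (−1.97 ± 0.521, adjusted p = 0.00810). Slc7a3, at trace levels in ExE, did not pass in Eed (0.70 ± 0.430, adjusted p = 0.280). Without wild-type embryo 8 it did (1.17, adjusted p = 0.0370), and 4 of 8 members were then called, against 15.9% of all genes. Fgf5 in G9aGlp (2.75 ± 0.766, adjusted p = 0.0258) and Slc35d3 in Eed (adjusted p = 0.00409) passed on trace levels in ExE, and the Fgf5 call was lost without the 4 doubtful libraries (adjusted p = 0.180). Members called were 0 of 8 in Dnmt1 (0.247% of all genes; 2 had an unadjusted p under 0.05 in edgeR's test and DESeq2 called 0), 2 of 9 in G9aGlp (6.83%), 1 of 9 in Rnf2 (6.82%) and 3 of 8 in Eed (15.9%).

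The reciprocal wild-type crosses did not differ detectably in any member. In epiblast 0 of 8 tested members passed (0.0103% of all genes did, 1 gene), and in ExE 0 of 2 (1.06%). The largest differences were in Slc35d3, with 28.6, 14.9, 19.3 and 5.07 CPM in CASTxBDF1 epiblast against 21.8 to 39.9 CPM in BDF1xCAST (−0.81 ± 0.343, p = 0.0330 unadjusted in edgeR's test, adjusted p = 0.666), and in Utf1 of ExE (0.77 ± 0.325, adjusted p = 0.345). Each of the 2 was the only member with an unadjusted p under 0.05 in its tissue, and DESeq2 called no member in either.

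Male and female epiblasts, compared within groups over all 35 libraries, gave 0 calls among the 9 members (0.179% of all genes were called), with 1 unadjusted p under 0.05 in edgeR's test and no call by DESeq2. That 1 was Trh. In Rnf2 epiblast the 4 males had 720, 451, 366 and 240 CPM and the 2 females 129 and 74.3 CPM. In Eed the 5 males ranged from 819 to 3495 CPM and the 4 females from 411 to 722 CPM. Every male was thus above every female in those 2 knockouts, whereas in G9aGlp the sexes had nearly the same mean (626 CPM in males and 629 CPM in females) and in BDF1xCAST they overlapped. The order was the reverse in CASTxBDF1, where the only male, with 45.4 CPM, lay below the 3 females (112 to 118 CPM), and in Dnmt1 the 1 male (490 CPM) lay between the 2 females. The fitted difference was 0.83 ± 0.264 in males (adjusted p = 0.340 in edgeR's test). When genes with low counts were kept in the fit it was nearly the same, 0.86, but with an adjusted p of 3.27e-08. This was the only call among 3 alternatives. The smaller p came with a change of gene filter and almost no change in the difference, so nothing is read from it. Slc7a3 showed the same order in BDF1xCAST and Rnf2 epiblast, with 320 to 564 CPM in 4 wild-type males against 131 to 296 CPM in 3 females, and 338 to 413 CPM in 4 Rnf2 males against 153 and 173 CPM in 2 females. In the other groups the sexes overlapped or the male lay lower. The male and female means of Slc7a3 were 352 and 349 CPM in Eed, 482 and 587 CPM in G9aGlp, 179 and 251 CPM in Dnmt1, and 146 and 266 CPM in CASTxBDF1, and over all groups the difference did not pass (0.23 ± 0.193, adjusted p = 0.922).

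**Figure D3:**
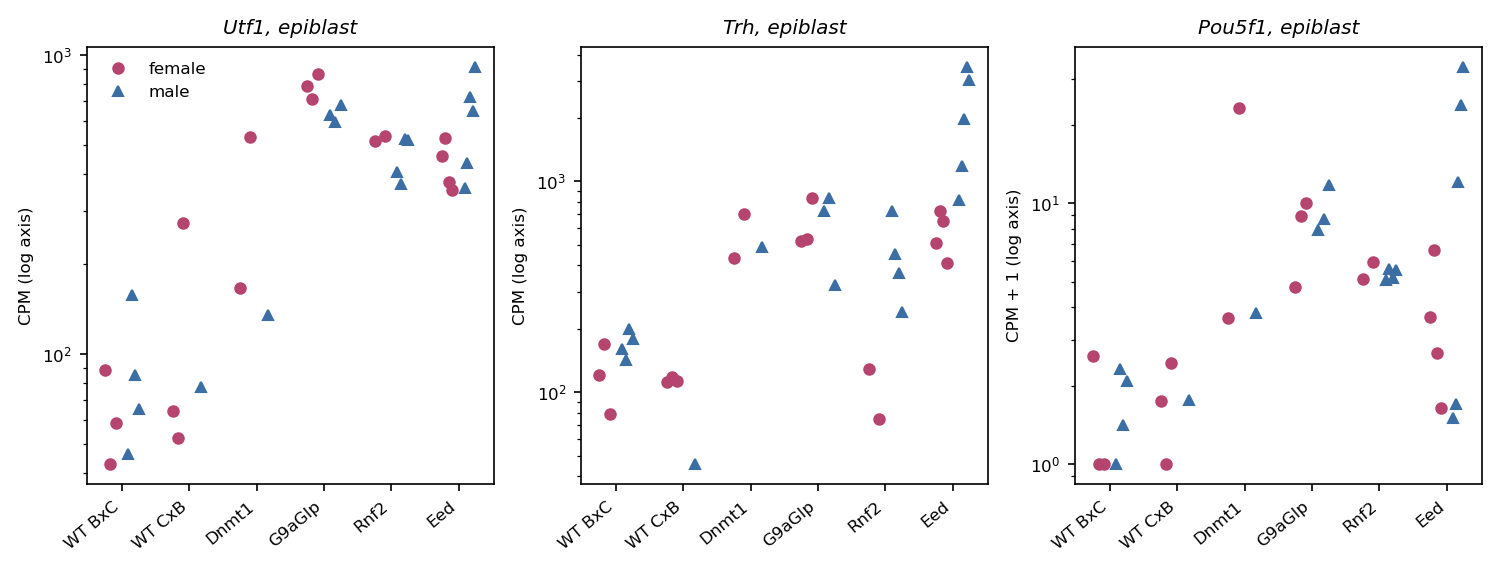
Utf1, Trh and Pou5f1 in each epiblast library by group and sex, on log axes (CPM, and CPM + 1 for Pou5f1); circles are females and triangles males. Every Eed male has more Trh than every Eed female (819 to 3495 against 411 to 722 CPM), and the highest Pou5f1 values of the Eed group are in 3 of its males.

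In the allele-resolved reads the autosomal members had unequal shares from the 2 strains, as did all autosomal reads together, with no detectable difference between parents. In wild-type epiblast the share of reads from the BDF1 allele was on average 79.5% for Slc35d3, 72.6% for Trh, 59.5% for Utf1, 59.1% for Nanog, 57.0% for Sox2, 53.6% for Fgf5 and 39.7% for Otx2 in BDF1xCAST, against 57.7% over all autosomal reads. With the parents reversed the BDF1 shares were 84.6%, 71.6%, 57.0%, 66.5%, 63.4%, 51.2% and 42.6%. A model with strain and parent called strain for 7 of 7 tested members in epiblast (42.9% of all genes) and for 2 of 2 in ExE (49.1%), and called parent for 0 of 7 and 0 of 2 (0.319% and 0.844% of all genes), with no unadjusted p under 0.05 in edgeR's test and no call by limma. Against the median BDF1 excess of 0.22 over all genes, the strain terms were 2.20 ± 0.259 for Slc35d3 (log2 of BDF1 over CAST, adjusted p = 4.84e-07), 1.39 ± 0.0905 for Trh (adjusted p = 5.06e-11), 0.77 ± 0.118 for Nanog (adjusted p = 1.80e-05) and −0.48 ± 0.145 for Otx2 (adjusted p = 0.0106), the only one of the 7 with more CAST reads. Strain is tested against an equal split, from which the 57.7% over all autosomal reads departs too. Whether a member departs from that general share was not tested, nor was the part of read mapping in it. The Fgf5 term (0.14) lay under the median over all genes. The calls of Sox2 (0.59), Otx2 and Fgf5 were each lost when some single CASTxBDF1 embryo was left out. Sox2 had a larger BDF1 share in ExE, 78.1% in BDF1xCAST (strain term 1.85 ± 0.264, adjusted p = 7.74e-06), and the difference between the tissues was not tested. In G9aGlp ExE that share was 56.8%, and 7 of 8 libraries lay under the wild-type range, but the change did not pass (unadjusted p = 0.00320, adjusted p = 0.162 in edgeR's test). Pooled over the libraries of a group, it was 77.3% in Dnmt1, 59.7% in G9aGlp, 61.1% in Rnf2 and 65.0% in Eed, from 66 to 303 reads, against 74.9% in BDF1xCAST. No knockout passed where Sox2 could be tested.

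**Figure D4:**
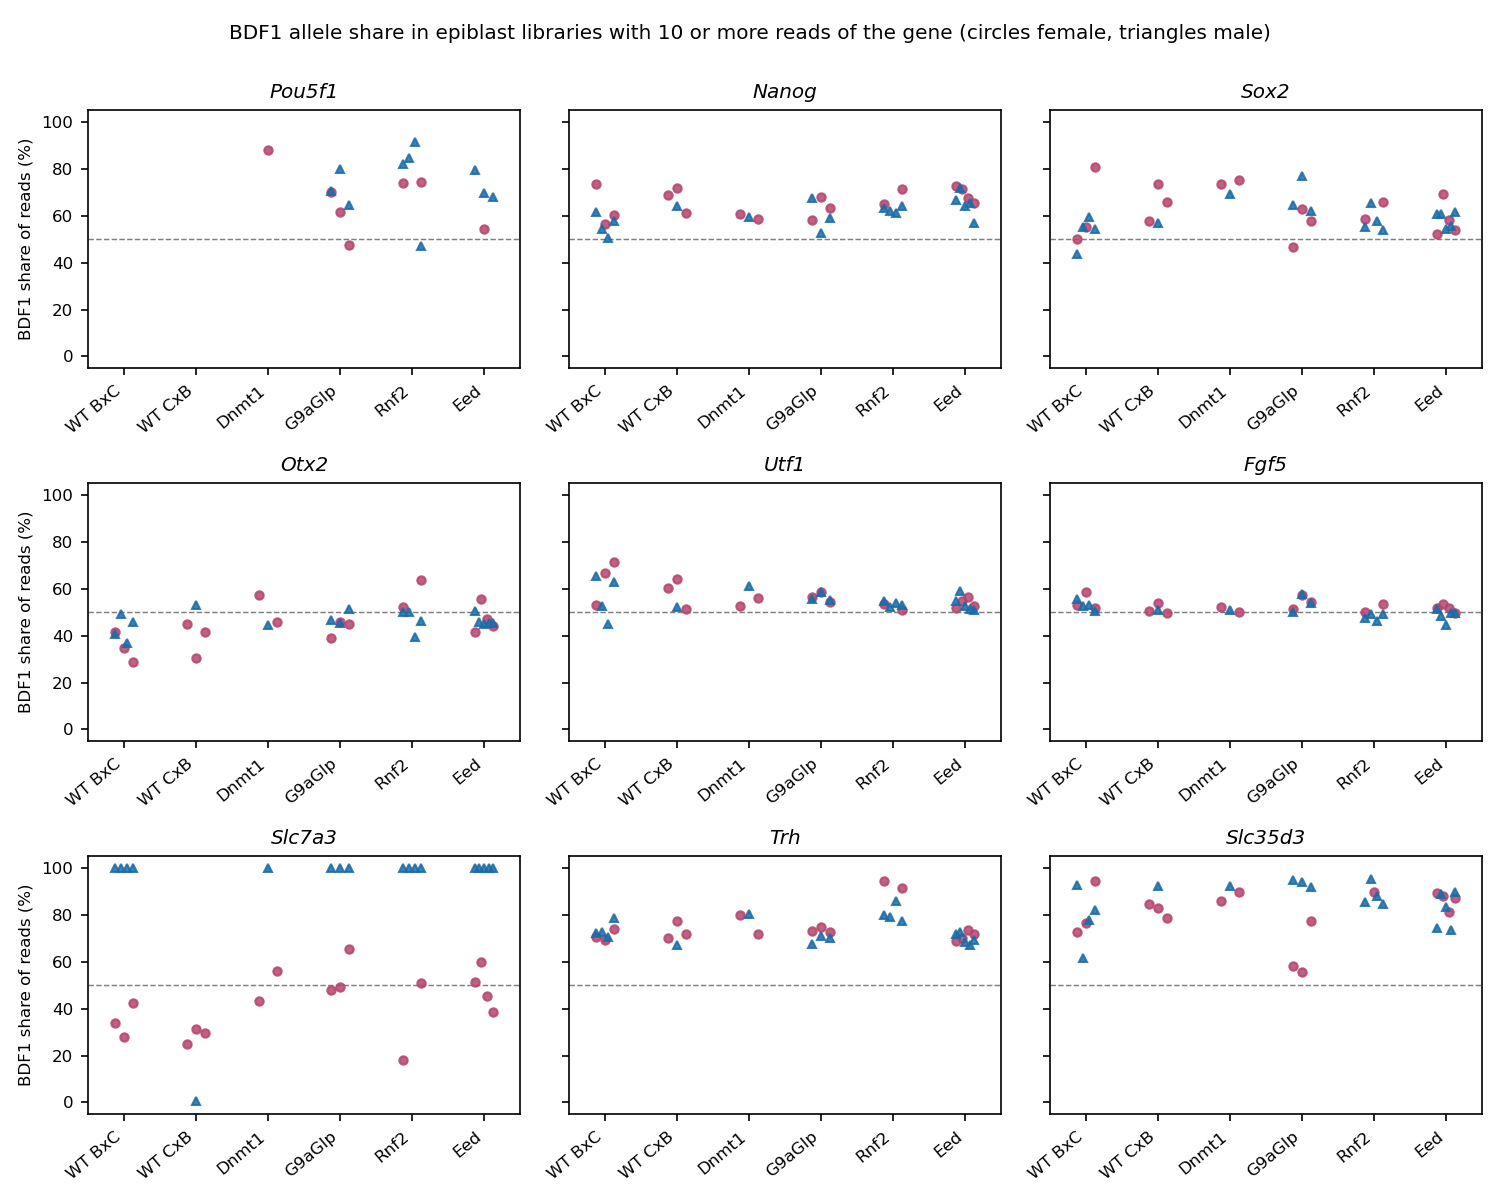
Percentage of reads from the BDF1 allele in each epiblast library with at least 10 reads of the gene, by group; circles are females, triangles males, and the dashed line is 50%. Slc35d3 and Trh lie above the line in every library shown, and X-linked Slc7a3 is at or near 100% in males with a BDF1 mother and near 0% in the CASTxBDF1 male.

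No knockout moved the allelic balance of a member past the threshold. In epiblast 0 of 7 members passed in Dnmt1 (0.908% of all genes), G9aGlp (1.79%), Rnf2 (0.696%) and Eed (1.06%), and in ExE 0 of 1 in Dnmt1 (0.856%) and 0 of 2 in G9aGlp (1.10%), Rnf2 (0.922%) and Eed (2.65%). limma on log ratios also called 0. Unadjusted p values under 0.05 in edgeR's test numbered 1, 0, 4 and 2 in epiblast and 1, 1, 2 and 1 in ExE, in the same order. Utf1 and Trh changed in total with no detectable change in the split between alleles: in G9aGlp epiblast the BDF1 share was 56.4% for Utf1 and 71.4% for Trh. The nearest to a call was Trh in Rnf2 epiblast, with BDF1 shares of 80.0%, 79.0%, 86.0%, 77.4%, 94.3% and 91.2% in embryos 1, 2, 3, 5, 6 and 8, against 69.4% to 78.8% in the wild type (1.06 ± 0.272, unadjusted p = 0.000945 in edgeR's test, adjusted p = 0.0865). Embryos 6 and 8, the females, had the least Trh. Their CAST allele gave 7.39 and 6.53 CPM, below the wild-type minimum of 20.6 CPM, while their BDF1 allele gave 121 and 67.8 CPM, within the wild-type range of 57.9 to 140 CPM.

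Slc7a3, on the X chromosome, separated the sexes by allele. Males took at most 0.521% of its epiblast reads from the paternal allele, in every group. In BDF1xCAST females the paternal (CAST) share was 57.6% to 72.3%, and in CASTxBDF1 females the paternal (BDF1) share was 24.9% to 31.1%, so in both crosses most reads came from the CAST allele. Knockout females ranged more widely, from 34.7% to 81.8% paternal. The Rnf2 females held the highest value and one of 49.0%, and the Eed females ranged from 40.1% to 61.6%. Snx12 overlaps Slc7a3 in the deposited coordinates, and strand is not stated to have been used.

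Across the 12 group means of log2(CPM + 1), 8 of the members resembled at least 1 other member at a Pearson's r of 0.855 or more, and Utf1 did not. Otx2 and Fgf5 resembled each other (r = 0.996), and both were most like Ms4a4d among 11553 other genes (0.9995 and 0.9973), a gene at 36.4 CPM in BDF1xCAST epiblast and 0.404 CPM in ExE. Nanog was most like Vrtn (0.9948), Slc7a3 like Lrp2 (0.9952), and Trh like Pim2 (0.9952), which was also among the 5 genes closest to the mean profile of the members (0.990), behind Mup6 (0.995), Gm12298, Pirt and Mfap4. Gm12298 and Pirt had nearly equal levels in each group (6.29 and 5.86 CPM in BDF1xCAST epiblast), and whether they share reads was not tested. Slc35d3 was most like Pik3ca (0.9944) and Pou5f1 like Serpina3m (0.9862). Sox2 was most like Sox2ot (0.9991), with which it shares its locus. Utf1 stood apart: its best match among the members was Pou5f1 at 0.283, and among other genes Zfpl1 at 0.9805, which rose from 14.2 CPM in BDF1xCAST epiblast to 84.1, 68.4 and 66.2 CPM in G9aGlp, Rnf2 and Eed. These correlations describe 12 means that share the tissue contrast.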

How the data were processed

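RNA of single dissected tissues was made into libraries with SMART-Seq v4 and Nextera XT and sequenced on a NovaSeq, per the labels' protocols. The submitters' processing notes name STAR 2.5.0, HTSeq and mm10. For each gene and library the authors deposited a read count over polymorphisms between BDF1 and CAST, an allelic ratio (the CAST share less 0.5) and an allelic score, which matches a signed −log10 of a binomial p-value. All 72 libraries had columns, and the bisulfite sample was not analysed here.

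CAST reads were recovered from the ratio and score: 99.595% of 715156 scored values gave a whole read count within a score tolerance of 0.002. Counts were tested with edgeR 4.0.16 (R 4.3.3; quasi-likelihood, TMM scaling, filterByExpr), and adjusted p-values (Benjamini-Hochberg over all genes tested, threshold 0.05) come from that fit. Allele counts of autosomal genes were tested by edgeR's quasi-likelihood fit with a term per library. Both alleles of a library were scaled to its total, without TMM scaling or filterByExpr. Every group had to have 3 or more libraries with 10 or more reads of the gene. DESeq2 1.42.0 served as an alternative for total counts, and limma 3.58.1 (pseudocount 0.5) for allele counts. Each SE given with a log2 change in edgeR's test is approximate: the size of the change over the square root of its F statistic. It is unreliable where a change is near 0 or a group has no reads. The procedure was tested on simulated data. Library totals (1141414 to 17653087 reads) bound the precision, and intervals and floors cover counting error only, since reads carry no molecular identifiers.

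The members and gene lists were chosen with earlier results of these data known. Of each list, up to 3 called genes per comparison with the largest change could be named, and likeness used genes with a mean of at least 5 CPM in 1 or more groups. Embryos are the replicates. The tissues of 1 embryo carry its number, so numbers pair the wild-type tissues; deviations from the group means correlated at 0.02 to 0.49, over 0.1 in 6 of 7 embryos. Eed embryos are numbered by their embryo label; for the last of them the numbers in the titles pair the tissues otherwise, and no Eed result rests on that pairing. Across genotypes a number is only a number. Alternatives were other size factors, DESeq2, no filter, a replicate block, sex as a covariate, an allelic minimum of 20 reads, leaving out each replicate of groups of 3 to 5, and leaving out libraries that stand apart or whose targeted gene was not low (not under the lowest wild-type library, or in Rnf2 ExE not under the second lowest).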

Additional observations from a re-analysis of the deposited data

Results flagged for a closer look

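Of 67 sets of a member in 1 group with 4 to 10 libraries and enough reads to be looked at, 14 held a library far from the others by Dixon's test, where chance flags about 1 in 20. Nanog was far above the next library in wild-type BDF1xCAST epiblast 8 (284 CPM against 100), G9aGlp epiblast 4 (247 against 119), G9aGlp ExE 8 (33.8 against 11.2) and Rnf2 ExE 7 (4.00 against 0.541). Rnf2 ExE embryo 7 was also far above the rest in Slc7a3 (5.43 CPM) and Trh (3.57 CPM), and G9aGlp ExE embryo 8 in Trh (24.1 CPM). Eed ExE embryo 10 stood above the rest in Fgf5 (8.53 CPM) and Trh (13.7 CPM), and Eed ExE embryo 9 in Otx2 (4.32 CPM). In epiblast, Otx2 was high in Rnf2 embryo 6 (82.5 CPM), and Utf1 in wild-type BDF1xCAST embryo 2 (158 CPM) and CASTxBDF1 embryo 4 (274 CPM). Trh was low in CASTxBDF1 epiblast 2 (45.4 CPM against 112).

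A knockout's change differed between the tissues, by the interaction term of edgeR's test, in 6 cases. Utf1 rose less in ExE than in epiblast in G9aGlp (−1.86, adjusted p = 0.00104), Rnf2 (−1.40, adjusted p = 0.0184) and Eed (−1.60, adjusted p = 0.000629). Sox2 differed in Eed (−1.97, adjusted p = 0.00810), where it passed in ExE and not in epiblast. The terms of Fgf5 in G9aGlp (2.75, adjusted p = 0.0258) and Slc35d3 in Eed (4.36, adjusted p = 0.00409) rest on trace levels in ExE; wild-type ExE had no read of Slc35d3, so the size of that term depends on the prior count and is no bound.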

How the results depend on the processing

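Over 847 values of single members under alternatives, 812 stayed on their side of the threshold, 19 lost a call, 16 gained one and no called value changed direction, although 31 values with no call in either fit had the opposite sign, and TMM-scaled totals left 108 of 108 group means within 1 SD. The causes of the changes below were not tested, other than fewer samples or fewer genes where the setting itself says so.

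The replicate block was run across genotypes although numbers there do not pair embryos (correlations of −0.43 to 0.27 in Dnmt1 epiblast, for instance), and no group had every library closest to its own number. It gave 1177 genes in Rnf2 epiblast (3144 without it), 558 in Rnf2 ExE (2113) and 1866 in Eed epiblast (3510). Members called became 5 in G9aGlp epiblast (3 without it), 2 in Rnf2 epiblast (4), 0 in Rnf2 ExE (1) and 1 in Eed ExE (2). For the paired wild-type tissues the block added Sox2 and changed no other call of a member.

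Without wild-type epiblast 8, an alternative chosen after seeing the data like that without Eed epiblasts 6, 9 and 10 and all allelic fits in ExE, 2447 genes were called in Dnmt1 epiblast (1445 with it), 2 between the crosses (1), 77 in the Dnmt1 interaction (28) and 1175 in that of G9aGlp (747), and 5 members in G9aGlp epiblast (3). With wild-type embryo 8 left out, 4 members were called in the Eed interaction (3 with it). Without Eed epiblasts 6, 9 and 10, 2197 genes were called in Eed epiblast. Without the libraries whose targeted gene was not low (for Rnf2 ExE, where all 5 were above the wild-type minimum, the 3 above the second lowest wild-type library as well), genes called were 1047 in Dnmt1 ExE (1804 with them), 745 in G9aGlp epiblast (3305), 529 in Rnf2 ExE, 18 in the Dnmt1 interaction and 114 in that of G9aGlp, where 1 member was left of 2.

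Leaving out each replicate in turn gave 671 to 972 genes and 1 to 2 members in Dnmt1 epiblast, 603 to 1047 genes in Dnmt1 ExE, 0 to 1 between the crosses in epiblast and 38 to 72 in ExE (101 with all), and 4 to 7 members for strain in epiblast. DESeq2 called 22 genes between the crosses in epiblast, 252 in ExE, 110 and 1167 in the Dnmt1 and G9aGlp interactions, 52 for sex (22 by edgeR), and 2 members in the Rnf2 interaction (1). With no filter the counts were 8651 genes between the wild-type tissues (5293), 22 between the crosses in epiblast, 64 in the Dnmt1 interaction and 124 for sex; members called were 2 of 8 in Dnmt1 ExE (1 with the filter), 3 of 9 in G9aGlp ExE (1), 4 of 9 in Eed ExE (2), where 9.82%, 8.20% and 24.8% of all genes were called, 3, 4 and 4 of 9 in Dnmt1, G9aGlp and Eed epiblast (5.40%, 13.3% and 16.3%), each with Pou5f1 added, 2 in the Rnf2 interaction and 1 for sex (0). With sex as a covariate 0 genes differed between the crosses in epiblast, and members called were 1 in Dnmt1 epiblast and 2 in Rnf2 ExE.

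For allelic balance limma called 25, 51, 27 and 23 genes in Dnmt1, G9aGlp, Rnf2 and Eed epiblast (65, 156, 64 and 96 by edgeR) and 13, 36, 15 and 152 in ExE (66, 96, 83 and 237). Leaving out replicates gave 36 to 38 genes in Dnmt1 epiblast, 28 to 40 in Dnmt1 ExE and 50 to 83 in Rnf2 ExE. Pou5f1 outside Rnf2 epiblast and most members in ExE had too few reads to be tested, although wild-type ExE libraries were as deep as epiblast (2685835 to 3053690 against 1311863 to 3028267 reads).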
